A study of Mus musculus with 18 samples.

Results

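The 36 genes described here encode the extracellular matrix of the liver, the enzymes and inhibitors that remodel it, and markers and signals of hepatic stellate cells. They were chosen by name, with earlier results of these data known, as all probe sets annotated to the 36 symbols. Each gene was read from its probe set with the highest mean over the 18 arrays. Of the 36, 35 had a probe set of their own (81 probe sets in all), Fbn1 was not analysed here, and Lox was too dim to test, which left 34 of the 12578 genes tested in the whole data set. The arrays, which measured liver RNA of male mice aged 12 weeks, formed 6 groups of genotype and diet with 3 arrays each. Knockout mice (Alb-Cre+/-/POR-lox+/+) lack cytochrome P450 reductase (Por) in the cells where the albumin promoter drives Cre, the hepatocytes, while controls (Alb-Cre-/-/POR-lox+/+) lack Cre, so that both genotypes carry the floxed alleles. Both genotypes ate synthetic diets from week 4 for 8 weeks, whose fat was fish oil plus fungal oil (called fish/fungal oil here), canola oil or lard, and were fasted for 4 h before the livers were taken. RNA of 3 mice was pooled per array, 9 mice to a group, and nothing in the labels links pools of the same number across groups. Non-parenchymal cells, which make most of the matrix, keep their Por alleles in this model, and Por itself was not analysed here, which leaves the genotype labels unchecked.

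Hepatic stellate cells lie between hepatocytes and the sinusoidal endothelium, store vitamin A when quiescent, and become matrix-producing, contractile myofibroblasts after liver injury. Fibrillar collagens I, III and V form the scar, collagen IV and laminins form basement membranes, and the balance of metalloproteinases and their tissue inhibitors sets how fast the matrix is degraded. Transforming growth factor beta and platelet-derived growth factor are the classical signals of stellate cell activation.

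All values are the deposited log2 expression values. Array medians lay between 5.229 and 5.286, arrays of 1 group correlated at 0.9928 to 0.9969, and 0 pairs of arrays were identical. The tissue label was checked on 7 hepatocyte genes (Alb, Apoa1, Ttr, Hpx, Apob, Cps1 and Tat), which lay at or above the 97.3 percentile of every array. In whole liver, fewer cells of a type and less RNA per cell cannot be told apart, which holds for every value below. Immediate early genes set control fish/fungal pool 2 apart, and Egr1 alone clearly set control lard pool 3 apart from the remaining pools. In control fish/fungal pool 2 the 8 immediate early genes looked at (Fos, Egr1, Jun, Junb, Atf3, Btg2, Dusp1 and Zfp36, chosen after the member values were seen) all had their highest value of 18 arrays. Fos, a rapidly induced transcription factor, was 11.22 there, against 5.01 to 6.68 in the other 17 pools. Control lard pool 3 was second highest for 5 of the 8 (Fos, Egr1, Jun, Btg2 and Dusp1). Egr1, another such factor, was 10.72 there and 11.34 in control fish/fungal pool 2, against 6.50 to 8.79 in the other 16 pools. Fos, Jun, Btg2 and Dusp1 were 6.68, 8.03, 7.76 and 8.96 in control lard pool 3. Their highest values in the other 16 pools were 6.66, 7.79, 7.75 and 8.70.

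Averaged over the 3 diets, 3 of the 34 members rose in knockout livers and 0 fell (limma, p adjusted by Benjamini-Hochberg over 12578 genes, threshold 0.05). The genes that rose were Timp1, Col4a1 and Col5a2, of which Timp1 was bright enough to test only through knockout pools. Of all genes tested, 3.82% were called higher and 0.755% lower in the same comparison. The log2 change, knockout minus control, was positive for 28 of 34 members with a median of 0.18 (0.10 where each gene's probe sets were averaged), while 48.0% of all genes tested were positive with a median of 0.00. At an unadjusted p under 0.05 there were 14 members, or 41.2%, against 2262 of all 12578 genes tested. Most members therefore shared a direction, though the list was chosen with earlier results of these data known. For 31 of 34 the change was not past the threshold. The number of arrays, 9 against 9, limits the precision, and the median standard deviation within groups was 0.21 for the members, against 0.14 for all genes tested.

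**Figure D1:**
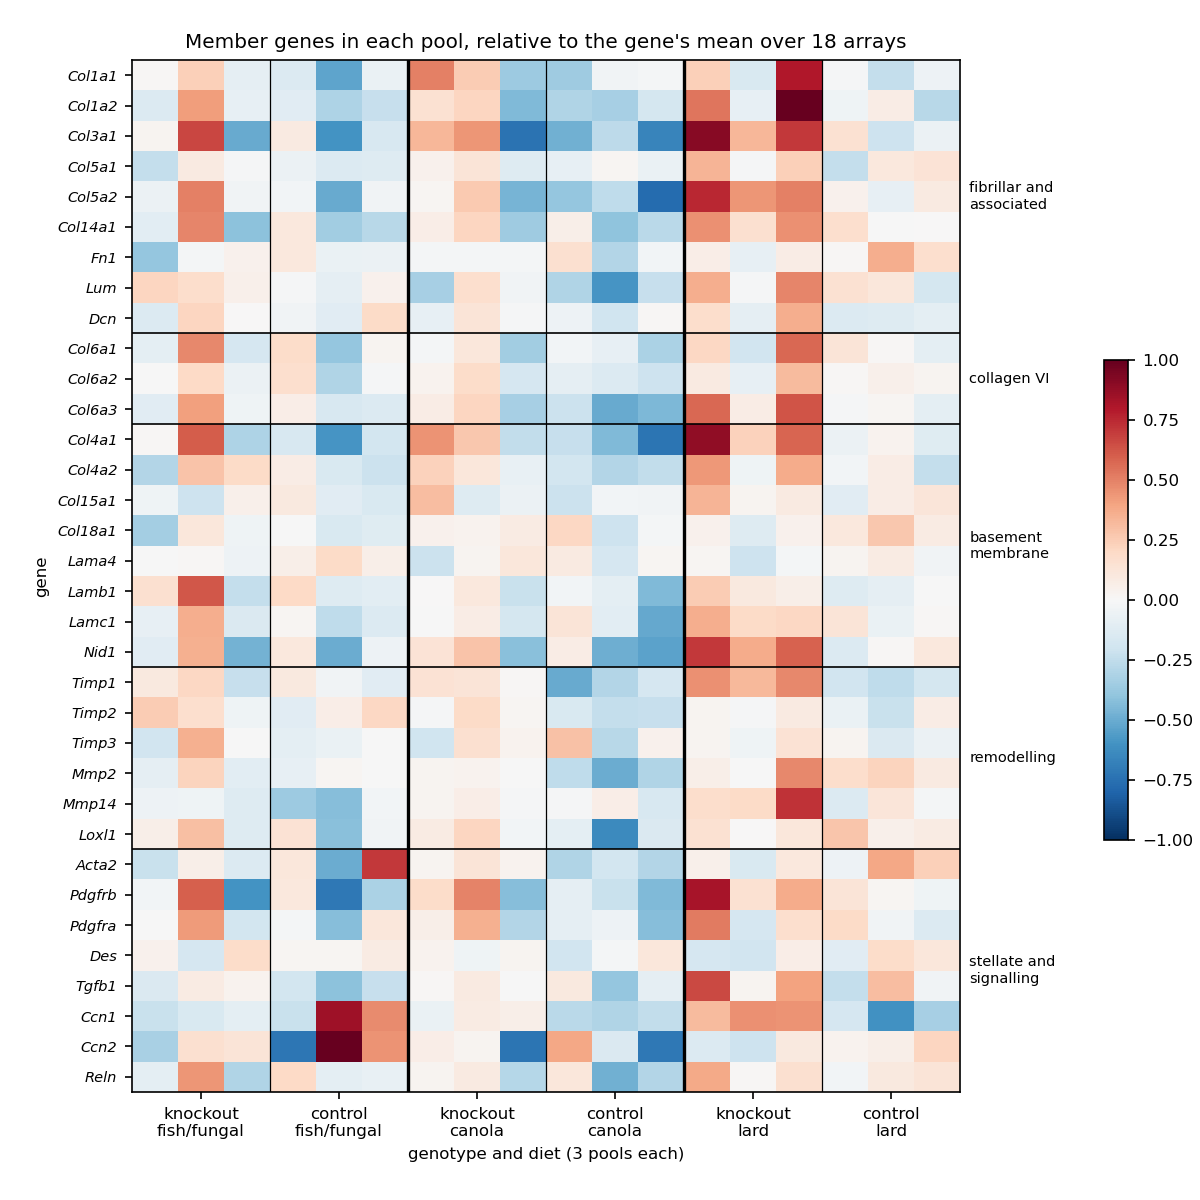
Heat map of the 34 tested members (rows, grouped by role) in the 18 pools (columns, 3 for each genotype and diet), coloured by the log2 deviation from the gene's mean over 18 arrays (the darkest colours stand for 1 or more in either direction). Red cells gather in knockout lard pools 1 and 3 and in knockout fish/fungal pool 2. Blue cells gather in control canola pools 2 and 3 and, less so, in control fish/fungal pool 2.

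Among the fibrillar collagens and their partners, Col5a2 rose in knockout livers and the other 8 tested genes did not pass. Col5a2 encodes the alpha 2 chain of collagen V, which starts and limits the growth of collagen fibrils. Col5a2 had log2 values of 6.62, 7.18 and 6.65 in the knockout pools on fish/fungal oil, against 6.65, 6.18 and 6.64 in the control pools. Pools on canola oil had 6.70, 6.94 and 6.21 in knockout and 6.29, 6.43 and 5.91 in control livers, and on lard the knockout pools had 7.43, 7.12 and 7.18 and the control pools 6.72, 6.59 and 6.77. All knockout pools on lard lay above all control pools on lard, and on the other diets the genotypes overlapped. The averaged change was 0.43 ± 0.11 SE (1.34-fold, 95% interval 0.19 to 0.66, adjusted p = 0.0334). This call was lost without any 1 of 9 pools (all 3 control lard pools, knockout lard pool 1, control canola pool 3, knockout canola pools 1 and 2, and pool 2 of both fish/fungal groups), with an adjusted p of up to 0.0784 without knockout canola pool 2. With the mean of both Col5a2 probe sets it was 0.24 (adjusted p = 0.136), the second probe set being below the array median on all 18 arrays and changing by 0.06.

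Col3a1, the single chain of collagen III, is its neighbour on chromosome 1 and had the widest spread of the collagens. Col3a1 had log2 values of 9.39, 10.03 and 8.86 in the knockout pools on fish/fungal oil, against 9.45, 8.77 and 9.20 in the control pools. Pools on canola oil had 9.69, 9.81 and 8.62 in knockout and 8.88, 9.10 and 8.70 in control livers, and on lard the knockout pools had 10.27, 9.69 and 10.07 and the control pools 9.51, 9.15 and 9.30. The knockout pools on lard again lay above all control pools on lard, while knockout canola pool 3 and knockout fish/fungal pool 3 were among the lowest values of all. The averaged change of 0.49 ± 0.17 SE did not pass (adjusted p = 0.119). A second, dim Col3a1 probe set changed by 0.49 with an unadjusted p of 0.000174, and the mean of both probe sets passed (adjusted p = 0.0284).

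Col1a1 and Col1a2, the chains of collagen I, the main collagen of scars, did not pass. Col1a2 ranged from 7.34 to 8.90 (median 7.94) over the 9 knockout pools and 7.45 to 7.86 (median 7.55) over the 9 control pools. Its averaged change was 0.38 ± 0.13 SE (adjusted p = 0.125). Col1a1 ranged from 6.18 to 7.35 (median 6.78) over the 9 knockout pools and 6.02 to 6.54 (median 6.48) over the 9 control pools, with a change of 0.32 ± 0.13 SE (adjusted p = 0.181). For both genes the highest value of all 18 pools was in knockout lard pool 3, with 8.90 for Col1a2 and 7.35 for Col1a1. The genotypes overlapped widely, and the second probe set of Col1a1 changed by 0.11 (unadjusted p = 0.316).

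Lumican and decorin (Lum, Dcn), small proteoglycans that coat collagen fibrils, lie next to each other on chromosome 10. Lum had 9.08, 9.04 and 8.91 in the knockout pools on fish/fungal oil, against 8.85, 8.77 and 8.91 in the control pools, each knockout pool lying above each control pool, the nearest by less than the second decimal shows. Its averaged change was 0.24 ± 0.08 SE (adjusted p = 0.117) and that of Dcn 0.13 ± 0.07 SE (adjusted p = 0.347). Col14a1, a collagen that sits on the surface of fibrils, changed by 0.21 ± 0.12 SE (adjusted p = 0.358), and Col5a1, the partner chain of Col5a2, by 0.10 ± 0.07 SE (adjusted p = 0.487). Fibronectin (Fn1), which hepatocytes also secrete into plasma, was the exception in sign with -0.08 ± 0.07 SE (adjusted p = 0.599), and its other, dimmer probe set gave -0.34 (unadjusted p = 0.115).

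Collagen VI forms beaded filaments that tie cells and basement membranes to the fibrillar matrix. Of its 3 chains, Col6a3 came closest to the threshold. Col6a3 had log2 values of 6.76, 7.28 and 6.82 in the knockout pools on fish/fungal oil, against 6.94, 6.71 and 6.73 in the control pools. Pools on canola oil had 6.94, 7.09 and 6.54 in knockout and 6.65, 6.36 and 6.42 in control livers, and on lard the knockout pools had 7.44, 6.94 and 7.49 and the control pools 6.86, 6.88 and 6.77. The groups were apart on lard and overlapped on the other diets. The averaged change was 0.33 ± 0.09 SE (adjusted p = 0.0556), and it passed with array weights, after centring the arrays on their median, and without any 1 of 5 pools. Col6a1 and Col6a2, neighbours on chromosome 10, changed by 0.12 ± 0.11 SE (adjusted p = 0.629) and 0.11 ± 0.07 SE (adjusted p = 0.469).

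Col4a1 and Col4a2, whose products join as the standard collagen IV network of basement membranes, start close together on chromosome 8 and are transcribed away from each other. Their RefSeq promoter windows (build GRCm38.p6, 300 bases each, around the annotated start) are shown because the pair shares this start region. The windows are chr8:11312777-11313076 on the minus strand for Col4a1 and chr8:11312555-11312854 on the plus strand for Col4a2. They share 78 bases, and the annotated starts lie 21 bases apart. Each sequence is written 5′ to 3′ on the gene's own strand, and capitals mark every match, on either strand, of 8 short motifs, which are TATAAA (the TATA box), CCAAT (the CAAT box), GGGCGG (the GC box), TGANTCA (the site of AP-1), CAGACAG (a site of SMAD factors), CATTCC (the site of TEAD factors), GGGANTTCC (a kappaB site) and the CArG box of serum response factor. A match to the opposite strand appears as the reverse complement.
Col4a1: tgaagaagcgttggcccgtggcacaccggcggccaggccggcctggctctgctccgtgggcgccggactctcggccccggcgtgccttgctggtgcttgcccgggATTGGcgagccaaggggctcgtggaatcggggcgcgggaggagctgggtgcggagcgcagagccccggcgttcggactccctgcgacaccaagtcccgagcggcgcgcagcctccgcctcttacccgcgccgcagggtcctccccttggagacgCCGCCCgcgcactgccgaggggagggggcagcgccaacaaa
Col4a2: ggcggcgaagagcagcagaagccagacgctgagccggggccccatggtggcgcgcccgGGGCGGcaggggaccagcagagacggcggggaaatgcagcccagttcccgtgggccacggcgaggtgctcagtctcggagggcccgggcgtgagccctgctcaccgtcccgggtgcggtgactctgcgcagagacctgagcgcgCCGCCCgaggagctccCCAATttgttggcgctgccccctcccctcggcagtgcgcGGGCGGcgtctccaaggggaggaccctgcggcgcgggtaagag
Neither window holds TATAAA. Each holds CCAAT, as do 37.4% of all 32851 promoter windows in the table, and GGGCGG, as do 35.7%. The GGGCGG match nearest to the 3′ end of each sequence is the same 6 bases of the shared stretch, read once from each strand.

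Col4a1 rose in knockout livers by 0.55 ± 0.13 SE (1.47-fold, 95% interval 0.28 to 0.83, adjusted p = 0.0185), the largest averaged change among the 34 members. Col4a1 had log2 values of 8.32, 8.92 and 8.00 in the knockout pools on fish/fungal oil, against 8.15, 7.72 and 8.13 in the control pools. Pools on canola oil had 8.76, 8.58 and 8.06 in knockout and 8.08, 7.87 and 7.58 in control livers, and on lard the knockout pools had 9.20, 8.54 and 8.89 and the control pools 8.25, 8.34 and 8.19. The knockout pools lay above the controls on lard. On canola oil only knockout pool 3 fell among the controls, and on fish/fungal oil knockout pool 3 did. The call held in all 9 alternatives that apply and without each of the 18 pools, with an adjusted p of up to 0.0465 (without knockout canola pool 2). A second Col4a1 probe set changed by 0.34 (unadjusted p = 0.00259).

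Col4a2 had 7.79, 8.37 and 8.27 in the knockout pools on fish/fungal oil, against 8.16, 7.93 and 7.87 in the control pools. Canola knockout pools had 8.31, 8.20 and 8.01 and the control pools 7.90, 7.79 and 7.84, and on lard the knockout pools had 8.52, 8.04 and 8.45 and the control pools 8.06, 8.15 and 7.84. Here the genotypes were apart on canola oil and overlapped on the other diets. Its averaged change of 0.27 ± 0.09 SE did not pass (adjusted p = 0.0943), although it passed with array weights (adjusted p = 0.0363). The difference between the changes of Col4a1 and Col4a2 was not tested.

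Of the remaining 6 basement membrane genes, none passed, at unadjusted p of 0.0227 and above. Nidogen (Nid1), which links laminin to collagen IV, changed by 0.32 ± 0.13 SE (adjusted p = 0.186). It had 8.06, 7.72 and 7.95 in the knockout pools on lard, against 7.22, 7.37 and 7.46 in the control pools on that diet. The pools on lard did not overlap, and the change on fish/fungal oil was 0.07. The laminin chains Lamb1 and Lamc1 changed by 0.18 and 0.17 (adjusted p = 0.334 and 0.3), and Lama4, the laminin chain of vessel walls, by -0.07 (adjusted p = 0.56). Col15a1 changed by 0.08 (adjusted p = 0.609). Col18a1, the precursor of endostatin, which hepatocytes also make, changed by -0.04 (adjusted p = 0.828). On lard Col18a1 was lower in all 3 knockout pools, with 11.82, 11.64 and 11.81, against 11.88, 12.05 and 11.86 in the controls.

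Timp1, a secreted inhibitor of matrix metalloproteinases that is induced in injured liver, had the smallest p of all members. Its promoter window is shown as that of this member (chrX:20869916-20870215, plus strand, GRCm38.p6, capitals as above).
Timp1: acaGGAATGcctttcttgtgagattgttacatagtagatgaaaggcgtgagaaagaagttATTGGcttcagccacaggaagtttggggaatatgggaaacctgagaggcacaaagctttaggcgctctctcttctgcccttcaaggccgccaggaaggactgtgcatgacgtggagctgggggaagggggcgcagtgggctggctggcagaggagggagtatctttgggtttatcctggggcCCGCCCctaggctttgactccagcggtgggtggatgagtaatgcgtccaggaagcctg
It holds none of the exact letters searched for the TATA box, AP-1, SMAD factors, kappaB or the CArG box. Sites that differ from these letters were not searched for. CATTCC, found at its first bases, occurs in 14.7% of all windows, and TGANTCA, the letters of the AP-1 site, in 7.81%. Of the 23 members with a window in the table, 17 hold GGGCGG and 9 hold CCAAT.

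Timp1 had log2 values of 5.18, 5.29 and 4.85 in the knockout pools on fish/fungal oil, against 5.18, 5.04 and 4.97 in the control pools. Pools on canola oil had 5.22, 5.21 and 5.09 in knockout and 4.58, 4.79 and 4.91 in control livers, and on lard the knockout pools had 5.54, 5.40 and 5.56 and the control pools 4.89, 4.82 and 4.90. All knockout pools lay above all control pools on lard and on canola oil, and the genotypes overlapped on fish/fungal oil. The averaged change was 0.36 ± 0.06 SE (1.28-fold, 95% interval 0.23 to 0.50, unadjusted p = 2.79e-05 by limma, adjusted p = 0.00311). It was 0.04 ± 0.11 SE on fish/fungal oil (adjusted p = 0.972), 0.41 ± 0.11 SE on canola oil (unadjusted p = 0.00165, adjusted p = 0.344) and 0.63 ± 0.11 SE on lard (1.54-fold, adjusted p = 0.0116). The limma F test of a difference between diets gave an unadjusted p of 0.00551 and an adjusted p of 1. Timp1 was dim: only 4 pools, all of them knockout (3 on lard and fish/fungal pool 2), lay above their array median. It thus entered the test through the group in which it was higher. How the low signal affects the size of its change was not tested.

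The averaged Timp1 call held in all 8 alternatives that apply and without each of the 18 pools (adjusted p up to 0.00901). The filter at the 75th percentile is not among the 8, and Timp1 was not called with it. On lard the call was lost without control lard pool 2 (0.60, adjusted p = 0.0501) and in no other setting that applies. Without control lard pool 3 the change was 0.64 (adjusted p = 0.0496).

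**Figure D2:**
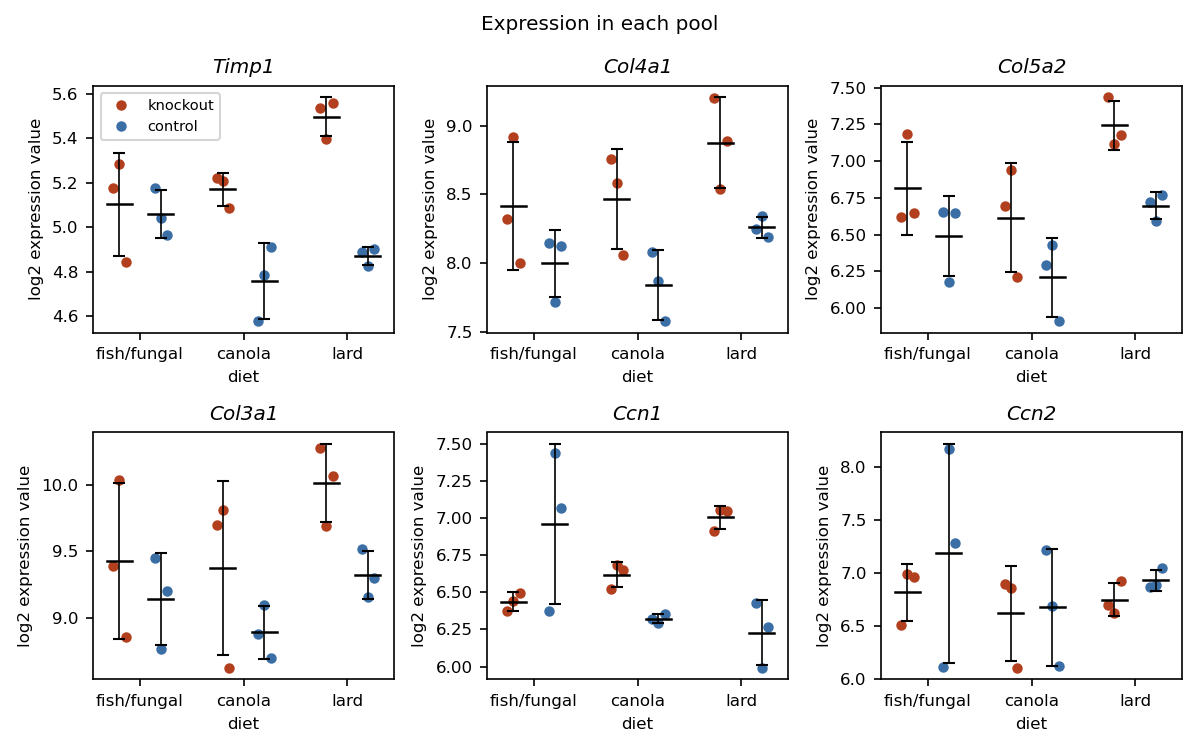
Log2 expression of 6 members in each pool (points), by diet, with knockout in red to the left of control in blue, and lines for the mean and SD of 3 pools. Timp1 separates the genotypes on canola oil and lard, and Ccn1 lies higher in knockout pools on lard but lower on average in knockout pools on fish/fungal oil.

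The other remodelling genes did not pass. Timp2 and Timp3, further inhibitors of the same enzymes, changed by 0.15 ± 0.06 SE (adjusted p = 0.192) and 0.06 ± 0.08 SE (adjusted p = 0.745). The dimmer Timp2 probe sets changed by 0.08, 0.13, -0.04, 0.15 and 0.09. Mmp14, a membrane-bound protease that activates pro-Mmp2, changed by 0.21 ± 0.08 SE (adjusted p = 0.143), and had 8.27, 8.28 and 8.82 in the knockout pools on lard, against 7.95, 8.21 and 8.07 in the control pools. The genotypes were apart on lard, with knockout pool 3 the highest of all. A second Mmp14 probe set changed by 0.29 averaged over diets and by 0.52 on lard. Another, also above the array median on all 18 arrays, changed by -0.02 and -0.11. Mmp2, a gelatinase, changed by 0.14 ± 0.07 SE (adjusted p = 0.294) from the brighter probe set and passed with the mean of its 2 probe sets (adjusted p = 0.0377). On canola oil Mmp2 had 6.38, 6.39 and 6.35 in the knockout pools, against 6.10, 5.86 and 6.05 in the control pools, without overlap. Loxl1, an enzyme that cross-links elastin and collagen, changed by 0.17 (adjusted p = 0.327). Lox, its relative, had values of 4.64 to 4.98 on all arrays, below every array median.

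Among stellate cell markers and signals none passed in the averaged effect. Pdgfrb, the platelet-derived growth factor receptor that drives stellate cell division, changed by 0.35 ± 0.16 SE (adjusted p = 0.248), while a second probe set of nearly the same brightness changed by 0.04 (unadjusted p = 0.537). Pdgfra changed by 0.20 (adjusted p = 0.411). Tgfb1, the main profibrotic cytokine, changed by 0.26 ± 0.09 SE (adjusted p = 0.118). It had 7.08, 6.45 and 6.82 in the knockout pools on lard, against 6.18, 6.73 and 6.38 in the control pools. Thus 1 control pool lay among the knockout pools. A second, dim Tgfb1 probe set changed by -0.11 (unadjusted p = 0.0975). Over the 8 alternatives that apply, the averaged change of Tgfb1 was 0.08 to 0.26.

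Acta2, the smooth muscle actin of myofibroblasts, is a marker of the activated state. It had 6.95, 7.23 and 7.03 in the knockout pools on fish/fungal oil, against 7.28, 6.67 and 7.88 in the control pools. Canola knockout pools had 7.20, 7.30 and 7.21 and the control pools 6.87, 6.98 and 6.88, and on lard the knockout pools had 7.22, 7.02 and 7.28 and the control pools 7.12, 7.56 and 7.41. The knockout pools were above the controls on canola oil alone, and the averaged change was -0.02 ± 0.12 SE (95% interval -0.27 to 0.22, adjusted p = 0.941). Desmin (Des) changed by -0.05 ± 0.06 SE (adjusted p = 0.775). Reelin (Reln), which quiescent and activated stellate cells both make, changed by 0.09 ± 0.10 SE (adjusted p = 0.701).

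**Figure D3:**
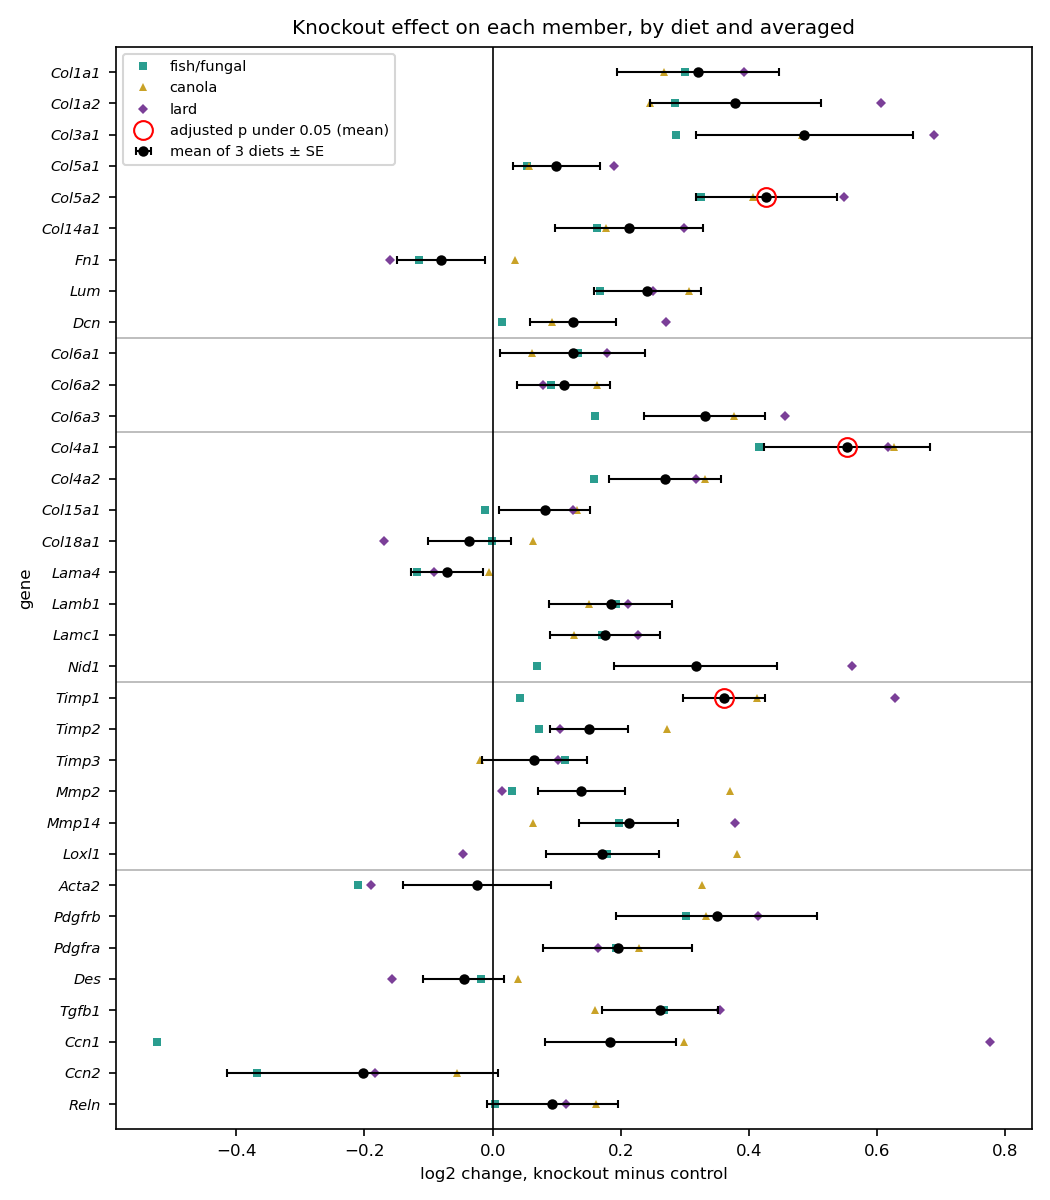
Knockout effect of each member (log2 change, knockout minus control), as the mean of 3 diets with its standard error in black and as separate values for fish/fungal oil, canola oil and lard in colour, with red rings for an adjusted p under 0.05 in the averaged effect. Of 34 averaged changes 28 are positive, and the widest range over diets is that of Ccn1 (-0.52 on fish/fungal oil, 0.30 on canola oil and 0.78 on lard).

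By diet, the knockout effect was called for 2 members on lard, Timp1 and Ccn1, and for 0 members on canola oil or fish/fungal oil (limma). Of all genes, 0.898% were called higher and 0.0875% lower on lard, 0.0636% in either direction on canola oil and 0.294% on fish/fungal oil. The shares on lard rest on 113 higher and 11 lower genes, and without 1 array these counts were 28 to 149 and 2 to 12, the fewest higher calls being those without control lard pool 3. At an unadjusted p under 0.05 there were 1 member on fish/fungal oil (7.62% of all genes), 9 on canola oil (6.14%) and 11 on lard (10.5%). The median log2 change over the 34 members was 0.12 on fish/fungal oil, 0.20 on canola oil and 0.22 on lard, and the medians over all genes were between -0.01 and 0.01. All 3 knockout pools lay above all 3 control pools for 2 members on fish/fungal oil (Lum and Tgfb1), where 5.72% of all genes did. On canola oil 7 members did so (Acta2, Ccn1, Col4a2, Loxl1, Mmp2, Timp1 and Timp2), against 7.04% of all genes, and on lard 12 did (Ccn1, Col3a1, Col4a1, Col5a2, Col6a3, Dcn, Lamb1, Lamc1, Mmp14, Nid1, Pdgfrb and Timp1), against 9.14%. Ccn1 and Timp1 stood in both the canola and the lard set. All 3 knockout pools lay below all 3 control pools for Lama4 on fish/fungal oil, where 5.18% of all genes did, for 0 members on canola oil (4.24%) and for Col18a1 on lard (6.84%). The F test for a dependence of the knockout effect on diet called 0 members and 0.00% of all genes, 2 members (Ccn1 and Timp1) and 1.92% of all genes having an unadjusted p under 0.05.

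Ccn1 and Ccn2 encode secreted matricellular proteins that bind integrins and are rapidly induced by growth factors and mechanical stretch. The promoter window of Ccn1 is shown because this gene had the smallest interaction p of the members, and it was chosen after its values were seen (chr3:145649936-145650235, minus strand, GRCm38.p6, capitals as above).
Ccn1: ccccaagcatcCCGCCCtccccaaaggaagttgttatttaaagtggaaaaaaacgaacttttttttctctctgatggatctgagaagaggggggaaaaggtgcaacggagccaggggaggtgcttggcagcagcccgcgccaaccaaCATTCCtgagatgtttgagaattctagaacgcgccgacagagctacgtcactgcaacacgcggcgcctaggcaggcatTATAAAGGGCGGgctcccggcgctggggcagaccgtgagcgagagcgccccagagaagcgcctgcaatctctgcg
It holds TATAAA directly followed by GGGCGG, which makes 1 run of capitals, and the TEAD letters. TATAAA occurs in 13.6% of all windows and in 2 of the 23 members' windows (Ccn1 and Col3a1), and CATTCC in 6 of the 23.

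Ccn1 had log2 values of 6.37, 6.44 and 6.50 in the knockout pools on fish/fungal oil, against 6.38, 7.44 and 7.07 in the control pools. Pools on canola oil had 6.53, 6.68 and 6.65 in knockout and 6.32, 6.29 and 6.35 in control livers, and on lard the knockout pools had 6.91, 7.05 and 7.05 and the control pools 6.43, 5.99 and 6.26. On lard the 3 knockout pools lay above the 3 control pools, with a change of 0.78 ± 0.18 SE (1.71-fold, adjusted p = 0.0459). On canola oil they did too, with 0.30 ± 0.18 SE (unadjusted p = 0.112, adjusted p = 0.916). On fish/fungal oil the sign was opposite, with -0.52 ± 0.18 SE (unadjusted p = 0.00904, adjusted p = 0.437), and this rested on control pools 2 and 3, control pool 1 lying within the range of the knockout pools. The limma interaction F test gave an unadjusted p of 0.00028 and an adjusted p of 1.

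The Ccn1 values depend on single pools. Without control fish/fungal pool 1 the interaction passed (adjusted p = 0.00249) and the change on fish/fungal oil was -0.82 (adjusted p = 0.0103), whereas without pool 2 that change was -0.28 (unadjusted p = 0.0868, interaction adjusted p = 1). Control fish/fungal pool 2 is the pool with the high immediate early genes given above, and the part of these genes in the Ccn1 difference was not tested. On lard the call was lost without any 1 of 15 of the 18 pools (adjusted p up to 0.182, without control lard pool 2, and 0.157 with a change of 0.80 without control lard pool 3) and in 5 of 9 alternatives. The probe set read for Ccn1 is of a type prone to cross-hybridization. Its 3 other, dimmer probe sets changed by 0.49, 0.35 and 0.32 on lard and by -0.27, -0.20 and -0.10 on fish/fungal oil. These are the same signs on each diet. In that order they lay above the array median on only 5, 0 and 0 of 18 arrays, and the last is also prone to cross-hybridization.

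Ccn2, known as connective tissue growth factor, had the widest spread of all members (standard deviation within groups 0.53). It had 6.51, 6.99 and 6.96 in the knockout pools on fish/fungal oil, against 6.11, 8.17 and 7.28 in the control pools, so that control pool 2 was the highest and control pool 1 among the lowest of all. The averaged change was -0.20 ± 0.21 SE (95% interval -0.65 to 0.24, adjusted p = 0.687), and -0.04 without control fish/fungal pool 2.

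No member passed in any comparison between diets (limma, 0 of 34 in each). For fish/fungal oil minus lard, 2.32% of all genes were called averaged over genotypes, 0.461% in knockout and 0.716% in control livers. For fish/fungal oil minus canola oil the shares were 0.986%, 0.159% and 0.262%, and for canola oil minus lard 0.00% of all genes were called in each. Members with an unadjusted p under 0.05 numbered 8 for fish/fungal oil minus lard averaged over genotypes (13.1% of all genes), 2 for fish/fungal oil minus canola oil (9.68%) and 11 for canola oil minus lard (6.77%). In knockout livers alone the counts in the same order were 6, 0 and 10 (8.55%, 5.92% and 4.83% of all genes), and in control livers 2, 5 and 6 (7.97%, 6.57% and 4.60%). Values on lard are shared by the first and last of these comparisons.

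Canola oil minus lard was negative for 31 of 34 members (median -0.19, and -0.01 over all genes), and all 9 tested fibrillar genes were among them. The smallest p was that of Col5a2, with -0.56 ± 0.13 SE (unadjusted p = 0.000679, adjusted p = 0.309). Mmp2 followed with -0.33 ± 0.08 SE (adjusted p = 0.331), then Lum with -0.37 ± 0.10 SE and Col6a3 with -0.40 ± 0.12 SE (adjusted p = 0.344 and 0.379). In knockout livers the median was -0.17 with 5 positive members, and in control livers -0.18 with 3 positive members.

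Fish/fungal oil minus lard was positive for 8 of 34 members (median -0.14, and 0.00 over all genes). Mmp14 came closest to the threshold with -0.35 ± 0.10 SE (adjusted p = 0.0718). Its fish/fungal pools had 8.05, 8.05 and 7.96 in knockout and 7.73, 7.67 and 8.07 in control livers, against 8.27, 8.28 and 8.82 in knockout and 7.95, 8.21 and 8.07 in control livers on lard. It passed without control fish/fungal pool 3 (adjusted p = 0.0335). Tgfb1 had -0.33 ± 0.11 SE (adjusted p = 0.168). Fish/fungal oil minus canola oil was positive for 25 of 34 members, with a median of 0.06.

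**Figure D4:**
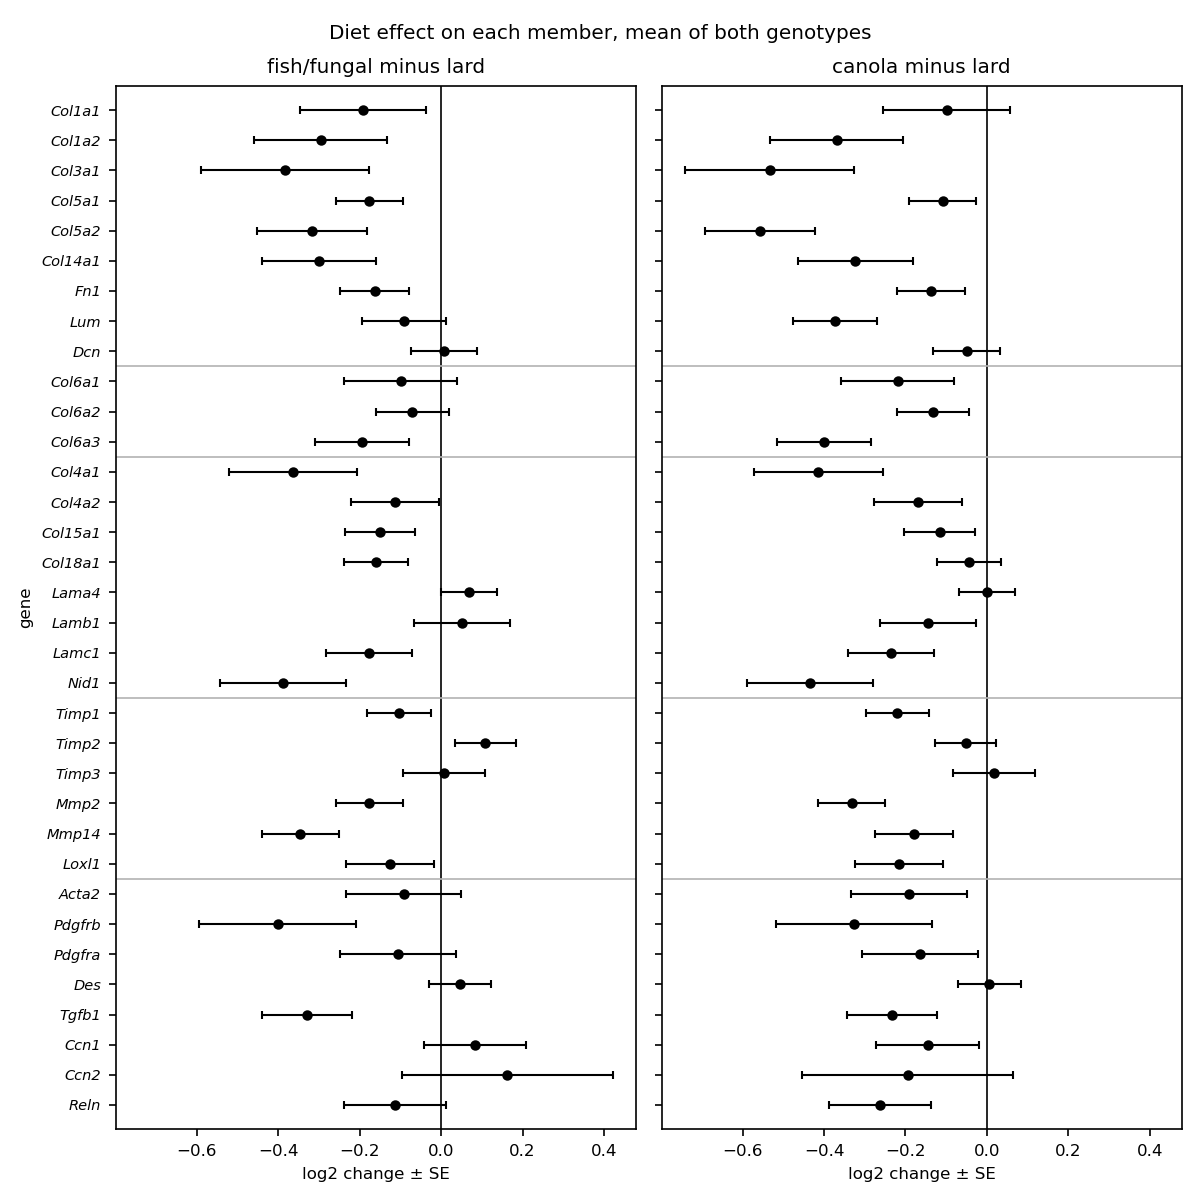
Diet effect of each member averaged over both genotypes (log2 change with its standard error), fish/fungal oil minus lard on the left and canola oil minus lard on the right. No member passed the threshold, and 31 of 34 values are below 0 for canola oil minus lard.

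Of the 6 group means of a member, the highest and the lowest fell most often in 2 groups. The knockout lard group was the highest of 6 for 24 of 34 members, where it was for 20.6% of all genes, and the control canola group was the lowest for 21, where it was for 19.4%. The knockout canola and control canola groups were highest for 0 members. Of the members highest elsewhere, Acta2, Col18a1, Des, Fn1 and Loxl1 were highest in control lard livers, Lamb1, Timp2 and Timp3 in knockout fish/fungal livers, and Ccn2 and Lama4 in control fish/fungal livers.

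Pools of 1 group also differed by much of the list at once. Knockout fish/fungal pool 2 was the highest of its 3 for 28 of 34 members (40.4% of all genes), and knockout canola pool 2 was the highest for 25 (29.7%). Knockout lard pool 2 was the lowest of its 3 for 31 members (37.8% of all genes), and control fish/fungal pool 2 was the lowest for 25 (38.1%). The median deviation of the members from their own means was -0.09, 0.23 and -0.09 in the knockout fish/fungal pools, against 0.02, -0.16 and -0.06 in the controls. On canola oil it was 0.04, 0.13 and -0.10 in knockout pools, against -0.09, -0.25 and -0.24 in control pools, and on lard 0.33, -0.01 and 0.37 in knockout pools, against -0.01, 0.04 and -0.01 in control pools. Without knockout lard pool 2, 8 members were called in the averaged effect (Col1a2, Col4a1, Col4a2, Col5a2, Col6a3, Lum, Tgfb1 and Timp1). Without knockout canola pool 3 or 1 of the knockout fish/fungal pools 1 and 3 there were 5, so that the count called moved with single pools. Without control fish/fungal pool 2, whose immediate early genes were high, 2 members were called (Col4a1 and Timp1), Col5a2 having an adjusted p of 0.0676. Ccn2, Col3a1 and Pdgfrb had the widest spread within groups (0.53, 0.42 and 0.39) and Lama4 and Timp2 the narrowest (0.11 and 0.12).

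Some macrophage markers differed by genotype in the same livers. Of 19 tested, 8 rose and 0 fell in the averaged effect (median 0.32), among them Itgax (0.26), Cd68 (0.52) and Gpnmb (0.51). In that effect 3.82% of all genes were called higher and 0.755% lower. On lard 5 rose (median 0.54), Mmp12 among them (2.95, with the limit given below), where 0.898% of all genes were called higher. On canola oil and fish/fungal oil 0 passed (limma). There 1 and 4 markers had an unadjusted p under 0.05, against 6.14% and 7.62% of all genes. Trem2 (-0.05) and Ccr2 (0.01) did not pass. Mmp12, a macrophage elastase, changed by 1.61 ± 0.22 SE (adjusted p = 0.000456), but it lay above the array median only on 6 knockout arrays, with 4.10 to 7.10 in knockout pools, against 3.74 to 4.41 in control pools. It thus entered the test through the group in which it was higher, and without it 7 of 18 markers rose (median 0.30). The mean levels that follow are over the 19 genes and so include Mmp12, which adds to their difference between genotypes. In the knockout fish/fungal pools the mean level was 8.16 to 8.74, against 8.24 to 8.31 in the controls. It was 8.12 to 8.47 in the knockout canola pools, against 7.84 to 8.22 in the controls, and 8.65 to 8.77 in the knockout lard pools, against 7.92 to 8.22 in the controls. Their part in the member changes was not tested.

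For the other cell types, the averaged effect (limma) is set against all genes. There 3.82% were called higher and 0.755% lower, and 2262 of 12578 genes had an unadjusted p under 0.05. Markers of quiescent stellate cells did not pass (0 of 14, 2 at an unadjusted p under 0.05, median 0.07). The smallest p were those of Lrat (0.32, adjusted p = 0.113), which esterifies stored vitamin A, and Bgn (0.21, 0.176). Of 5 tested myofibroblast and smooth muscle markers 0 passed and 0 had an unadjusted p under 0.05 (median -0.04), with Tpm2 at 0.21 and Lmod1 at -0.08, and Myh11, Cnn1 and Actg2, which define smooth muscle, lay below the array medians on all 18 arrays. Sinusoidal endothelial markers had 0 of 17 called and 3 at an unadjusted p under 0.05 (median 0.04), with Stab2 at 0.28 (adjusted p = 0.124) and Lyve1 at 0.35 (0.145). Of 6 portal fibroblast and mesothelial markers Fbln2 passed (0.26, adjusted p = 0.0151), but it too was above the array median only on 6 knockout arrays (5.19 to 5.64 in knockout pools, against 4.94 to 5.27 in control pools). Cholangiocyte markers (4 tested) and hepatocyte markers (7 tested) had 0 called and 0 at an unadjusted p under 0.05, with values of 0.10 for Epcam and 0.10 for Pkhd1, and of -0.05 for Ttr and -0.05 for Apoa1. Over the diets averaged over genotypes, Lyz2, a macrophage lysozyme, was the only marker called (0.65 ± 0.14 SE for fish/fungal oil minus canola oil, adjusted p = 0.0367).

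**Figure D5:**
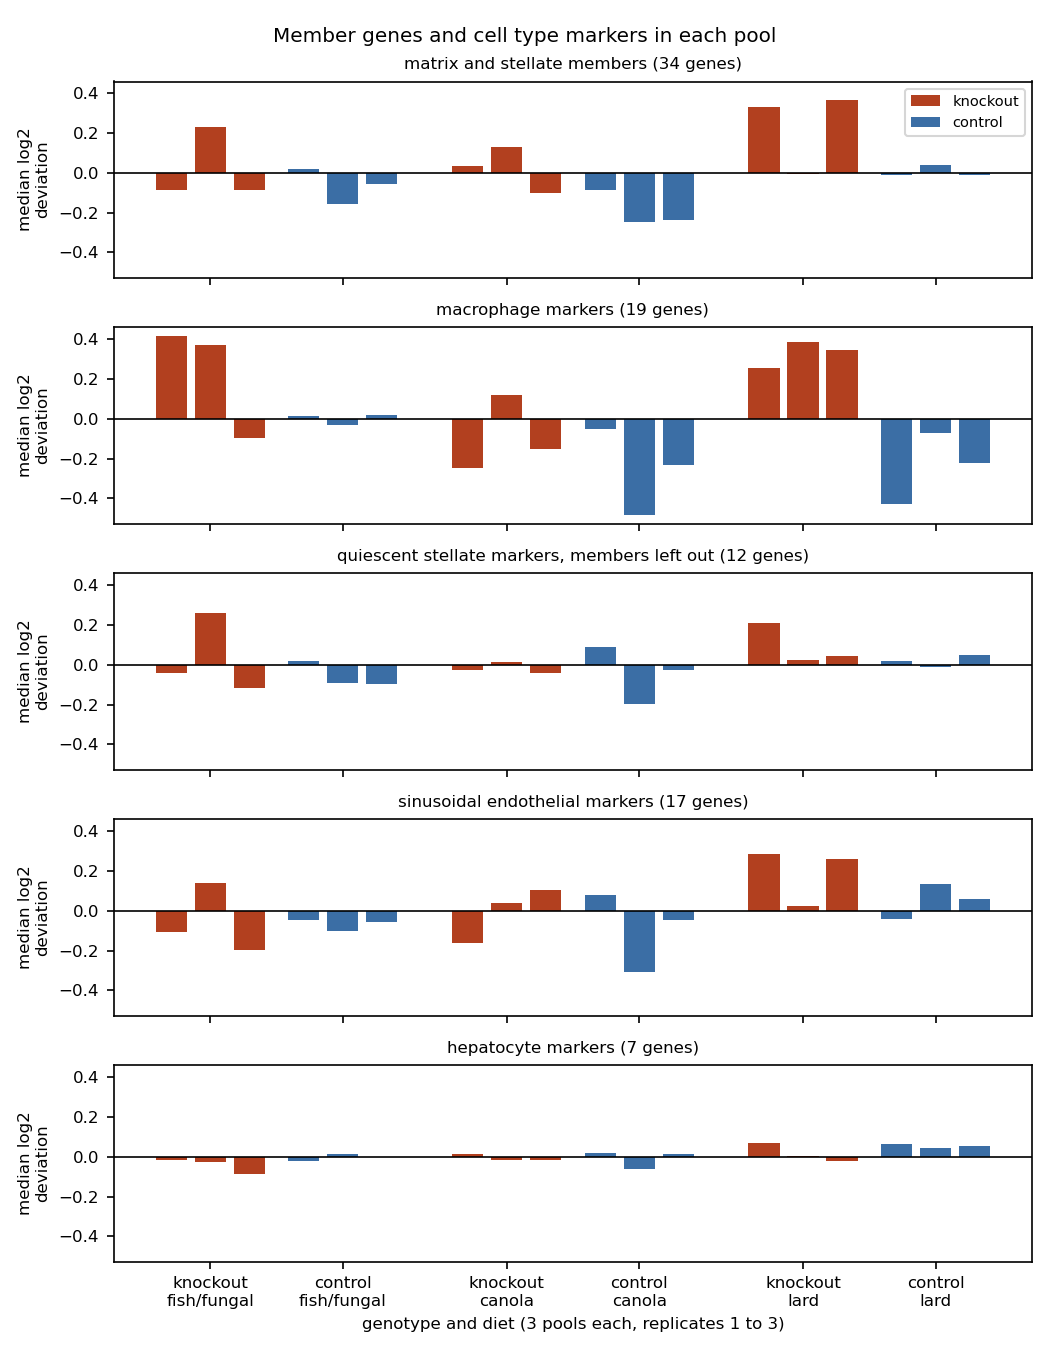
Median log2 deviation from each gene's mean over 18 arrays, in each pool, for the 34 members and for markers of 4 cell types (bars, knockout in red to the left of control in blue, replicates 1 to 3 within each group). Macrophage markers, Mmp12 included, are raised in all 3 knockout lard pools. The members are raised in knockout lard pools 1 and 3 but not in pool 2 (0.33, -0.01 and 0.37).

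Other genes of the same pathways were counted from whole lists, which like the members were chosen with earlier results of these data known. For comparison with every list below, 3.82% of all genes were called higher and 0.755% lower in the averaged effect. Collagen-modifying and cross-linking enzymes had 4 of 19 higher and 0 lower in the averaged effect. They were Plod1 (0.50 ± 0.08 SE, adjusted p = 0.0018), a lysyl hydroxylase, Tgm2 (0.38 ± 0.09 SE, 0.0183), a transglutaminase, Colgalt1 (0.25 ± 0.06 SE, 0.033), which adds galactose to hydroxylysine, and P3h1 (0.22 ± 0.06 SE, 0.0367), a prolyl hydroxylase. The median of the 19 was 0.14, against 0.00 over all genes. Among 13 other proteases and inhibitors, Mmp19 rose by 0.40 ± 0.07 SE (adjusted p = 0.0034) and 0 fell, and Mmp12 was called with the limit given above. Among 22 genes of transforming growth factor beta and platelet-derived growth factor signalling, the receptor Tgfbr2 rose by 0.64 ± 0.11 SE (adjusted p = 0.00263) and 0 fell. Of 18 matrix receptors, syndecan 1 (Sdc1), which hepatocytes carry, rose by 0.22 ± 0.05 SE (adjusted p = 0.0197).

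Of 16 other collagens 0 passed (1 at an unadjusted p under 0.05, median -0.04), the smallest p being those of Col12a1 (0.19, adjusted p = 0.103) and Col22a1 (-0.09, 0.41). Of 12 other basement membrane genes Lama3, a laminin chain, fell by 0.46 on the log2 scale (adjusted p = 0.0269) and 0 rose. Of 22 other glycoproteins and proteoglycans, Fbln2, dim as given above, was the only one to pass, and the median was 0.09.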

How the data were processed

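Liver RNA pools were hybridised to Affymetrix Mouse Genome 430 2.0 arrays, 18 in all, 3 for each of 6 groups. The deposited log2 values were made by the authors with RMA, per the submitters' processing notes (version not given in the sources used here). The notes do not name the scale, and log2 is inferred from the range of 2.409 to 14.893. No array was normalized again for the main tests. The series text gives the diets 6% fat and the sample labels 7%.

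Of 45101 probe sets, 34945 had 1 gene symbol, and these gave 18193 genes once symbols were brought up to date by gene ID (RefSeq, GRCm38.p6). A gene was read from its probe set with the highest mean and tested if that lay above the array median in at least 3 of 18 arrays (12578 genes, 5615 set aside as dim).

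limma 3.58.1 in R 4.3.3 fitted the means of the 6 groups with an intensity trend, and two-sided p-values were adjusted by Benjamini-Hochberg over all genes tested (threshold 0.05). Unadjusted p-values of second probe sets come from the same model fitted to probe sets. The code was tested on simulated data. The labels do not say how pools were handled, so p-values measure the spread between these pools. All members were named, and from each other list up to 4 genes past the threshold in the averaged knockout effect, up to 2 in each averaged diet effect, or the 2 with the smallest p where none passed. The members and lists were chosen with earlier results of these data known. Promoter sequences are from RefSeq (GRCm38.p6), where 23 of the 36 members have a window, and protein sequences were not used here.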

Additional observations from a re-analysis of the deposited data

How the results depend on the processing

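Each count was repeated with a second quantile normalization, with arrays centred on the tested genes' median, without the brightness filter or with it at the 75th percentile, with a gene's probe sets averaged, without _x_at and _s_at probe sets (prone to cross-hybridization), without the trend, with array weights, with a replicate block, with the compared groups alone, and without each of the 18 arrays. For the averaged knockout effect, where 3 members were called, 1 was called with the filter at the 75th percentile, which tests fewer genes, 6 with array weights, and 2 to 8 without 1 array. On lard, where 2 were called, 1 was called with repeated quantile normalization, with centring, with the mean of all probe sets, without the probe sets prone to cross-hybridization and with the replicate block, 0 with the filter at the 75th percentile, 3 (Ccn1, Col5a2 and Timp1) with the compared groups alone, and 0 to 2 without 1 array. The replicate block left 3 in the averaged effect and 0 in the effects on canola oil and on fish/fungal oil, in every diet comparison and in the interaction. Deviations of same-numbered knockout and control pools correlated at -0.27 to 0.46. With 3 pools a group, these values cannot show whether same-numbered pools were handled together. With array weights 1 member, Ccn1, was called for fish/fungal oil minus lard in controls. Without 1 array the counts were 0 to 1 for the knockout effect on fish/fungal oil, for the interaction, for fish/fungal oil minus lard in knockout, in control and averaged, and for fish/fungal oil minus canola oil in control and averaged. They were 0 throughout for the knockout effect on canola oil, for canola oil minus lard and for fish/fungal oil minus canola oil in knockout. The calls made without 1 array were Ccn1 without control fish/fungal pool 1, and Tgfb1 and Mmp14 for fish/fungal oil minus lard averaged, without knockout lard pool 2 and without control fish/fungal pool 3. The cause of these changes was not tested. Of all genes called in the averaged knockout effect, 480 were higher and 95 lower (83.5% higher), against 400 and 163 (71.0%) with repeated quantile normalization and 425 and 143 (74.8%) with centring, which moved the median of all genes to -0.02. Of 34 members 28 were positive under both scalings, and 28 to 29 without 1 array. The pool is the unit, and 3 arrays a group limit what single diets can show.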
